A study of Mus musculus with 9 samples.

Results

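Well-expressed processed pseudogenes of the mouse hippocampus were described. They were chosen as genes with the biotype processed pseudogene and a mean of at least 5 FPKM over all 9 libraries, where FPKM is the number of fragments scaled to the length of the gene and to the depth of the library. Of the 54532 genes in the table, 9497 carried this biotype, 3250 of these had at least 1 read in some library, and 141 reached the threshold. They were selected on this mean level, so their high level is not a result. The mean is not independent of the comparisons, since a pseudogene that is high in a single group can reach it through that group. The p-values below come from fits over all genes, and counts over the members describe a set chosen in this way.

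A processed pseudogene is a copy of a messenger RNA that was reverse transcribed and inserted elsewhere in the genome. It therefore lacks the introns of its parental gene, and most such copies are not known to give a protein. The abundant messengers of ribosomal proteins and of housekeeping enzymes have left many copies in mammalian genomes, and young copies are almost identical to their parents. A read from a parental messenger can then be assigned to the copy, and the reverse can also occur.

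RNA sequencing was performed on hippocampi of C57BL/6 mice in 3 groups of 3 libraries. All mice were bought at an age of 6 to 8 weeks. The Con mice were fed a standard diet. The HMD mice ate food rich in methionine (the high-methionine diet) over 8 weeks, and the Bet+HMD mice received 2.5% (w/v) betaine, a methyl donor, in their drinking water for 2 weeks after 8 weeks on this diet. Nothing in the labels ties the libraries to single animals, so p-values measure the spread between these libraries. The labels give the sex as male and the study's methods as female. Xist was at most 0.0449 FPKM and Ddx3y was 12.7 to 21.2 FPKM in the 9 libraries. The strain labels of the betaine libraries read C57BL/6, C57BL/7 and C57BL/8, and the protocol names only C57BL/6.

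The libraries held 16031464 to 18291952 reads assigned to genes. All 8 markers of the hippocampus were above 1 FPKM on average, and their sums were 245 to 270 FPKM in Con, 207 to 248 in HMD and 205 to 209 in Bet+HMD. Choroid plexus sums were 768 to 3193 FPKM in Con, 862 to 2562 in HMD and 930 to 1203 in Bet+HMD. Summed markers of the thalamus were 20.8 to 72.9 FPKM in HMD, 10.5 to 14.7 in Con and at most 19.2 in Bet+HMD, and 4 of the 5 were above 1 FPKM on average. Hemoglobin and Alas2 sums were 99.8 to 148 FPKM in Con, 149 to 233 in HMD and 72.2 to 122 in Bet+HMD. The part of other tissue in the results was not tested. The Bet+HMD libraries are held only by the later of 2 deposited tables and the other libraries by both, so a batch and betaine cannot be told apart. The labels list no further 2 weeks for HMD and Con. Age at sampling and time since the diet began thus cannot be told apart from betaine either.

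Replicate 3 of Con stood apart over these pseudogenes. It was the highest of its group at 75 of 141 members (53.2%), against 37.6% of the 13464 genes above 1 FPKM. It was at least 1.5 times both other Con libraries at 40 members, where Con 1 was so at 8 and Con 2 at 7. At 33 of these 40 members the parental gene was also highest in Con 3. Over the 141 members the correlation of log2(FPKM + 1) between Con 3 and the Bet+HMD libraries was 0.659 to 0.670, while the other Con and the HMD libraries had at most 0.499 with them. Con 3 itself had 0.746 with Con 1, 0.613 with Con 2 and 0.526 to 0.730 with the HMD libraries. These coefficients are descriptions over members of shared libraries and carry no test. HMD 3 was at least 1.5 times both other HMD libraries at 28 members.

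The members lay on 19 chromosomes and were 69 to 2406 bases long, with a median of 480. By alignment to protein-coding transcripts of GENCODE M21, each was matched to the parental gene with the best score, and all 141 matched in the sense direction. Identity was 75.9% to 100% with a median of 99.6%. It was at least 99% at 112 members and complete at 39, and under 95% at only 6. The matched part spanned at least 1 exon junction of the parental messenger at 138 members, with a median of 4 junctions and a maximum of 19, and 139 of the members were a single exon. The pseudogenes thus carried the spliced form of their parents along most of their length.

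The parents were 124 different genes. Ribosomal proteins were the parents of 47 members, mitochondrial proteins of 16, factors of translation or protein folding of 15, chromatin or transcription proteins of 12, proteins of the ubiquitin, SUMO and proteasome system of 9, RNA binding or splicing proteins of 8, and other proteins of 34. Every 50-base window of the sequence was also present in a transcript of another gene at 43 members, and the median member shared 88.3% of its windows. Only Gm12276, AC122821.1 and AC151284.2, which were named after their values were seen, shared no such window. How reads that match several places were treated is not stated, so the level of a member with a near-identical parent is uncertain.

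Within another gene, but clear of its exons, lay 22 members on the same strand and 28 on the opposite strand. Another 4 overlapped an exon and 87 touched no other annotated gene. The sources do not say if reads were counted by strand, so reads of the surrounding gene cannot be told apart from those of the member.

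The sequences that carry the differences described below are shown here from the GENCODE M21 transcripts on GRCm38. They are written 5′ to 3′ in lower case, and capitals mark the bases that differ from the parental transcript. Each stretch lies in the part that matches the coding sequence of the parent. Positions are counted from 1 at the 5′ end of the member, and a substitution gives the parental base first. H3f3c is shown because it was the member with the smallest p for the diet. Its bases 1 to 160 (chr2:119665877-119666036, - strand) hold all 4 differences from H3f3a, which are G8T, G76A, T135C and C144A.
H3f3c: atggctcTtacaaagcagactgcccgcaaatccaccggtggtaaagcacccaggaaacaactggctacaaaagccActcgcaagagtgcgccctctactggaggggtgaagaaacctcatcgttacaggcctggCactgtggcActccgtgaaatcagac

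Gm3362 and Rpl23a-ps3 are copies of Rpl23a, a protein of the large ribosomal subunit, and they moved in opposite directions. An internal stretch of 110 bases is shown for both (chr15:37943583-37943692, - strand and chr14:34170755-34170864, + strand). Gm3362 carried C142T, G158A, C184A and C194T, and Rpl23a-ps3 carried A116T.
Gm3362: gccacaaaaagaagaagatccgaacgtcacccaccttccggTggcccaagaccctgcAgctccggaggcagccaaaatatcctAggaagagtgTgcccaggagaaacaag
Rpl23a-ps3: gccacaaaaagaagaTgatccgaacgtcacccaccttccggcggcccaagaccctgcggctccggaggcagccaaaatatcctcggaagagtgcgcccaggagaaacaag

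The other members with the largest rises in Bet+HMD against HMD mostly differed from their parents at a single base or a pair of bases. Gm15387 (bases 1 to 60, chr15:74094274-74094333, - strand) carried A21G against Hmgb1. Gm9800 (bases 81 to 140, chr14:8800196-8800255, - strand) carried G112A against Ptma. Gm4149 (60 internal bases, chr13:75645066-75645125, + strand) carried T198C against Rpl37a. Gm16418 (bases 61 to 130, chr1:166431746-166431815, - strand) carried C87T and G116A against Uqcr11.
Gm15387: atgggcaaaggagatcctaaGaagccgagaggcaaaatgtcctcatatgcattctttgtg
Gm9800: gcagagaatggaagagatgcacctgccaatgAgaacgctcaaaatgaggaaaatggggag
Gm4149: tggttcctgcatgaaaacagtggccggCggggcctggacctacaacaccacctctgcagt
Gm16418: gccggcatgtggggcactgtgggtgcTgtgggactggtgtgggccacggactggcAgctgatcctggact

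Members with the largest falls are shown for the same reason. Gm4332 (60 internal bases, chr3:119709796-119709855, + strand) carried G313A against Rps20. Tpi-rs11 (bases 1 to 140, chr6:127183579-127183718, - strand) carried 7 substitutions against Tpi1, of which the stretch holds A13G, C15T, G16A, G64T, G78A and G133A. Gm10443 (bases 1 to 120, chr6:86334031-86334150, + strand) and Gm11702 (bases 1 to 66, chr11:115657494-115657559, - strand) were identical to Rps28 and to Dctn1 and so have no capitals. Gm10241 (bases 1 to 120, chr16:20176893-20177012, - strand), which was identical to Sumo2, is shown because its level ran against that of its parent.
Gm4332: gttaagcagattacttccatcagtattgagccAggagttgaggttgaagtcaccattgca
Tpi-rs11: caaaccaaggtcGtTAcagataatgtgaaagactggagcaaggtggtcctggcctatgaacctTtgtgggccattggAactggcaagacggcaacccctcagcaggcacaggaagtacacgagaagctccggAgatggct
Gm10443: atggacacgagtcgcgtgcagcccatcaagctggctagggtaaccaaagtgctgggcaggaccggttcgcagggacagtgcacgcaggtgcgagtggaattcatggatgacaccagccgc
Gm11702: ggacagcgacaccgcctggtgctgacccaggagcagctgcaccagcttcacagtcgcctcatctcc
Gm10241: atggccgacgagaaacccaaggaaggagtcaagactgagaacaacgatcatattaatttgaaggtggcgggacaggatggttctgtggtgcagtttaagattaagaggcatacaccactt

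By contrast, Gm12276 (bases 3 to 160, chr11:62331423-62331580, + strand) and AC122821.1 (bases 44 to 180, chr17:23813321-23813457, - strand) were copies with many differences. Their alignments to Gm10053, a cytochrome c gene, and to Rpl37 also hold gaps, and bases without a parental partner are capitals too.
Gm12276: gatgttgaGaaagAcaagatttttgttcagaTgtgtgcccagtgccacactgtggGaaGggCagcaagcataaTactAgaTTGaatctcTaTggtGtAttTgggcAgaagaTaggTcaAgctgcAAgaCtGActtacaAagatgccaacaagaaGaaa
AC122821.1: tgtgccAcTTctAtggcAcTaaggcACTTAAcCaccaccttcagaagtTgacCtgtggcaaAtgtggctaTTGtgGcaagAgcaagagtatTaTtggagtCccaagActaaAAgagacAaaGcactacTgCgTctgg

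The members took up 0.164% ± 0.0258 (SD, n = 3) of the assigned reads in Con, 0.149% ± 0.0154 in HMD and 0.115% ± 0.00880 in Bet+HMD. By library the shares were 0.156%, 0.142% and 0.192% in Con, 0.153%, 0.132% and 0.162% in HMD, and 0.125%, 0.111% and 0.109% in Bet+HMD. All 3 Bet+HMD libraries lay below the other 6. In bulk tissue, fewer cells of a type and less RNA per cell cannot be told apart. Between 140 and 141 members had at least 1 read in each library. A mean of at least 5 FPKM was reached in Con by 132 members, in HMD by 123, in Bet+HMD by 107 and in every group by 86. In HMD alone it was reached by H3f3c and Gm10736, and in Bet+HMD alone by Gm12276, Gm3362, AC122821.1 and Gm4149. These 6 had to differ between groups to be members, so their differences below are descriptions. Just inside the threshold were Gm10297, Gm4149 and Rpsa-ps10 with means of 5.11, 5.09 and 5.02 FPKM, and just outside were Hmgn2-ps1, Rpl35a-ps2 and Impdh2-ps with 4.996, 4.98 and 4.95 FPKM.

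The 10 members with the highest mean included 3 ribosomal, 3 mitochondrial and 4 other copies. Rpl17-ps10 (GRCm38 chromosome 7, 72648757 to 72649311, - strand), a copy of the large-subunit ribosomal gene Rpl17, had the highest mean, 129 FPKM. Its values were 182, 132 and 192 FPKM in Con, 146, 116 and 185 in HMD and 86.0, 68.7 and 52.8 in Bet+HMD. The Bet+HMD libraries lay below all others. Rpl17-ps3, another copy of the same parent, had 80.5, 96.2 and 76.4 FPKM in Con, 88.8, 91.8 and 61.9 in HMD and 28.7, 10.8 and 24.4 in Bet+HMD, and again no library of Bet+HMD reached the others. Gm14303, a copy of the small-subunit ribosomal gene Rps29 identical along its whole length, had 64.3, 52.3 and 149.7 FPKM in Con, 89.2, 61.4 and 66.1 in HMD and 36.7, 41.0 and 33.6 in Bet+HMD, with Con 3 far above the rest of its group.

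Of the mitochondrial copies, Gm10221 came from Atp5l and Gm10039 from Atp5g1, which encode parts of the ATP synthase, and Mpc1-ps came from Mpc1, a subunit of the mitochondrial pyruvate carrier. Gm10221 had 80.0, 72.5 and 81.2 FPKM in Con, 82.3, 48.8 and 71.5 in HMD and 12.1, 11.0 and 9.48 in Bet+HMD, and its Bet+HMD values were several-fold below the others. Gm10039 had 67.8, 67.6 and 60.7 FPKM in Con, 64.1, 57.3 and 73.2 in HMD and 46.6, 23.9 and 43.2 in Bet+HMD, and Mpc1-ps had 60.8, 81.7 and 77.6 FPKM in Con, 78.8, 81.5 and 81.5 in HMD and 56.3, 50.4 and 46.5 in Bet+HMD. In both, the Bet+HMD libraries were the lowest. Gm13509, a copy of the clathrin adaptor gene Ap2m1, had 53.5 to 74.4 FPKM in Con, 60.2 to 73.6 in HMD and 36.9 to 53.5 in Bet+HMD. Ptges3-ps, a copy of the gene for an Hsp90 co-chaperone, had 48.6 to 61.4 FPKM in Con, 42.7 to 58.2 in HMD and 32.3 to 42.5 in Bet+HMD.

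**Figure D1:**
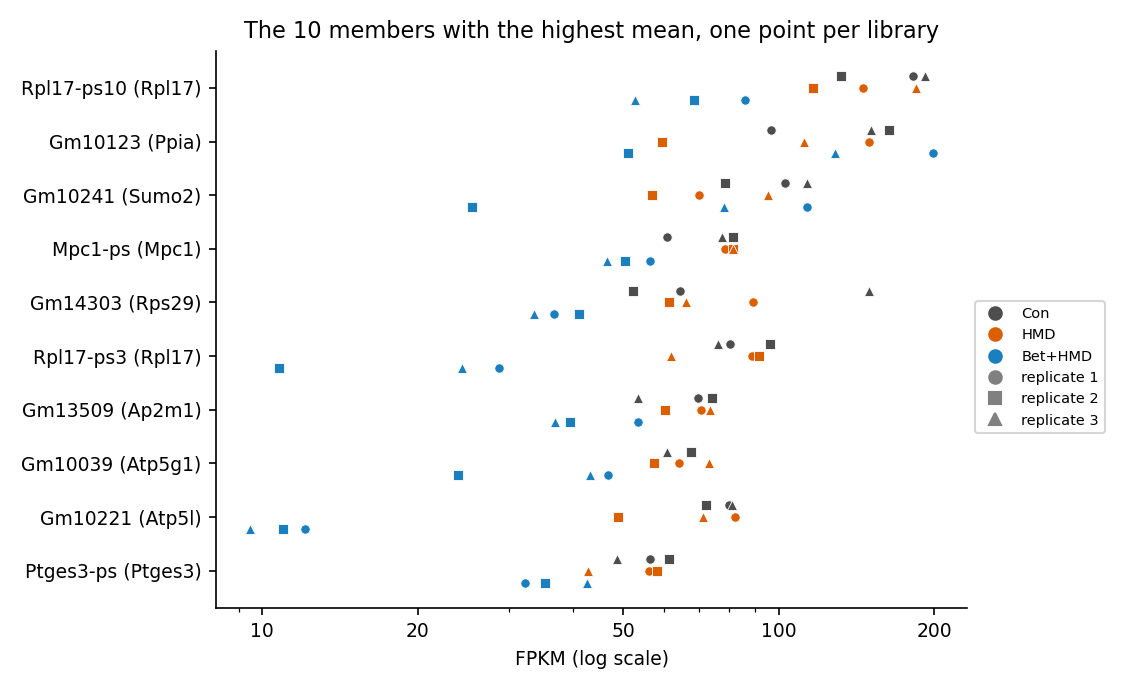
FPKM of the 10 members with the highest mean, on a log scale, with the parental gene in parentheses and one point per library (circle, square and triangle for replicates 1, 2 and 3). Gm10221 fell from 48.8 to 82.3 FPKM in Con and HMD to 9.48 to 12.1 in Bet+HMD, while the Bet+HMD libraries of Gm10123 and Gm10241 were spread widely.

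Gm10241 and Gm10123 are identical to their parents. Gm10241 (chromosome 16, opposite strand to Yeats2) is a copy of Sumo2, which encodes a small modifier of proteins. It was assigned 532, 365 and 554 reads in Con, 349, 249 and 461 in HMD and 563, 129 and 391 in Bet+HMD. Sumo2 was assigned 142, 180 and 140, 112, 117 and 124 and 154, 1003 and 263 reads in the same libraries. In Bet+HMD 2, Gm10241 was thus at its lowest and Sumo2 at its highest. The member held 67.0% to 79.8% of the reads of the pair in Con and HMD, and 78.5%, 11.4% and 59.8% in the Bet+HMD libraries. After removal of the group means, r between member and parent over the 9 libraries was −0.95, given as a description.

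Gm10123 is a copy of Ppia, the gene of cyclophilin A. It was assigned 858, 1302 and 1267 reads in Con, 1274, 446 and 925 in HMD and 1696, 442 and 1098 in Bet+HMD. Within HMD the coefficient of variation of depth-scaled reads was 43.7% for Gm10123 and 9.34% for the sum of member and parent, and within Bet+HMD it was 58.7% and 10.9%. In Con it was lower for the member (25.5%) than for the sum (41.9%), since Ppia was high in Con 3. For Rpl17-ps10 the variation within Con was 22.2% alone and 3.46% with Rpl17. The median coefficient over the members was 32.1%, 26.8% and 20.4% in Con, HMD and Bet+HMD, and that of the sums was 17.7%, 10.5% and 8.09%. Parents held most reads in most pairs and had medians of 18.9%, 11.1% and 8.78%. The median within-group r between member and parent was 0.22 over 141 pairs, and it was below −0.5 in 17 pairs and above 0.5 in 52.

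**Figure D2:**
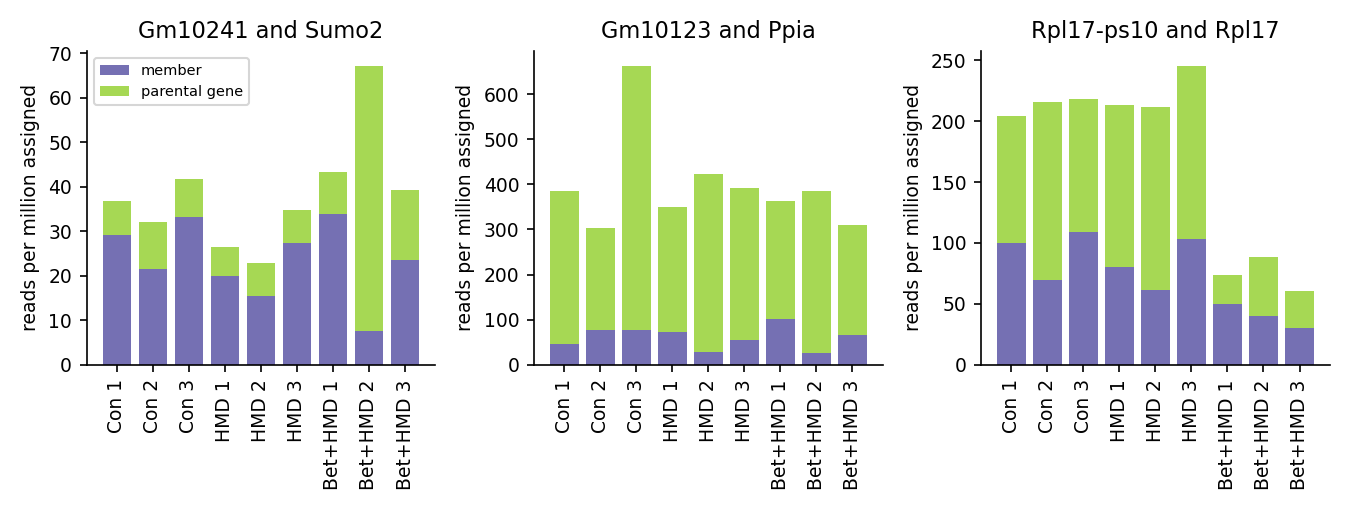
Reads of 3 members (violet), scaled to the depth of each library (RPM), with those of their parental genes (green) stacked on top, one bar per library. The share of Gm10241 fell to 11.4% in Bet+HMD 2, where the summed bar is the highest of the 9.

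The effect of the diet was examined between the HMD and Con libraries. Of the 141 members, all of which passed the filter, 0 were called at a limma adjusted p under 0.05, as were 0% of the 13004 genes tested. An unadjusted p under 0.05 was found at 9 members (background 4.52%), and limma voom on recovered reads called 0 and found 2. The median log2 fold change was −0.14 over the members and −0.01 over all genes. Groups did not overlap at 8 members (background 9.61%), 3 of them higher (4.71%) and 5 lower (4.9%) in HMD. Without Con 3 the count of calls was 0 as well, and the median was −0.04. The members with the smallest p are given below by their values.

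H3f3c (ENSMUSG00000082029, GRCm38 chromosome 2, 119665626 to 119666036, - strand) had the smallest p, and it is a member through its HMD level alone. It is a copy of H3f3a, a gene for H3.3, the histone H3 variant that is deposited outside replication. Its values were 2.29, 6.15 and 2.56 FPKM in Con, 14.7, 21.3 and 22.3 in HMD and 0.70, 0.413 and 0.699 in Bet+HMD, on 17, 41 and 18 reads, 105, 134 and 155 reads and 5, 3 and 5 reads. All HMD libraries lay above all Con libraries, and all Bet+HMD libraries lay below both groups. Means were 3.67 ± 2.16, 19.4 ± 4.13 and 0.604 ± 0.166 FPKM (SD, n = 3). The log2 fold change of HMD against Con was 2.20 (SE 0.305, limma adjusted p = 0.230), which did not pass. It passed without Con 2, the highest Con library, at 2.56 with a limma adjusted p of 0.0312, and in a fit of all 3 groups with an adjusted p of 0.0412. As H3f3c had to differ between groups to be a member, these values are descriptions. Over the remaining alternatives the adjusted p was 0.218 to 0.953.

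The parent H3f3a had 15.7, 10.8 and 19.5 FPKM in Con, 9.84, 6.44 and 15.9 in HMD and 12.4, 14.9 and 12.0 in Bet+HMD, and its log2 fold change of HMD against Con was -0.52 (limma adjusted p = 0.979). H3f3b, the other gene for H3.3, had 61.6 ± 6.11, 64.2 ± 3.93 and 37.4 ± 1.64 FPKM in the 3 groups. H3f3c held 1.52% to 6.29% of the reads of the pair with H3f3a in Con, 14.2% to 27.9% in HMD and 0.325% to 0.678% in Bet+HMD.

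**Figure D3:**
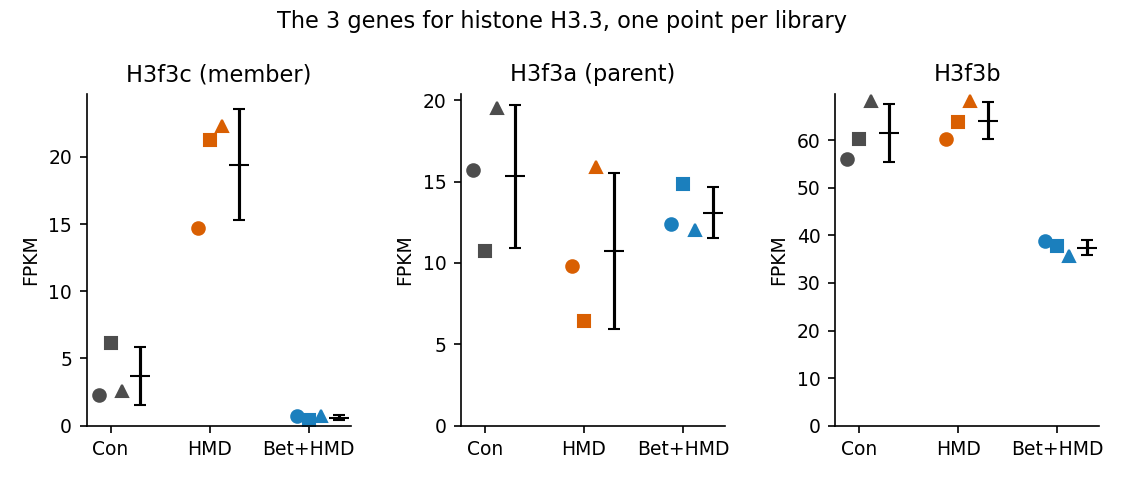
FPKM of H3f3c, its parent H3f3a and H3f3b, one point per library (circle, square and triangle for replicates 1, 2 and 3) with the mean and SD of each group beside the points. H3f3c was 14.7 to 22.3 FPKM in HMD, 2.29 to 6.15 in Con and at most 0.70 in Bet+HMD, while H3f3b was 60.4 to 68.2 FPKM in HMD, 56.2 to 68.2 in Con and 35.6 to 38.9 in Bet+HMD.

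Next by p among the members with a higher mean in HMD were Tpi-rs11 and AC122821.1. Tpi-rs11 is a copy of Tpi1, the triose phosphate isomerase of glycolysis, and had 20.7, 14.7 and 12.1 FPKM in Con and 24.3, 26.9 and 22.3 in HMD. The groups did not overlap, and the change was 0.63 (SE 0.189, limma adjusted p = 0.979) on the log2 scale. AC122821.1 had 1.54, 0 and 0.815 FPKM against 2.81, 3.87 and 1.03, and its groups overlapped. With a lower mean in HMD, the smallest p were those of Gm12276 (3.67, 4.92 and 4.27 against 2.29, 3.04 and 2.95 FPKM), Rab11b-ps2 (20.03, 17.7 and 15.5 against 13.8, 13.1 and 14.1 FPKM) and Gm8121 (12.1, 14.2 and 12.1 against 10.8, 10.6 and 9.37 FPKM). Rab11b encodes a GTPase of recycling endosomes, and Immp1l, the parent of Gm8121, a peptidase of the inner mitochondrial membrane. These 3 did not overlap between the groups, and their limma adjusted p-values were 0.971 to 0.979. Without Con 3 the log2 fold changes were 2.05 for H3f3c, 0.46 for Tpi-rs11, 1.07 for AC122821.1, −0.49 for Gm12276, −0.43 for Rab11b-ps2 and −0.33 for Gm8121, and none was called by limma (adjusted p = 0.556 to 1.00).

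The Bet+HMD libraries, with betaine after the diet, were compared with the HMD libraries, where batch, age and time may differ too. Of the 141 members, 91 were called at a limma adjusted p under 0.05 (background 48.3% of 13672 genes), which is 64.5%. Of the 86 members with a mean of at least 5 FPKM in every group, 45 were called (52.3%), 11 higher (12.8%) and 34 lower (39.5%), and with a change of at least 1 on the log2 scale 3 higher (3.49%) and 15 lower (17.4%). The minimum in every group leaves out members that were low in one of them. Higher in Bet+HMD were 27 (19.1%, background 22.8%) and lower were 64 (45.4%, background 25.5%). With a change of at least 1 on the log2 scale there were 16 higher (background 6.14%) and 40 lower (background 2.79%). An unadjusted p under 0.05 was found at 97 members (background 55.8%), and groups did not overlap at 90 (background 60.1%), 25 higher (28.3%) and 65 lower (31.8%). The median log2 fold change was −0.38, against −0.03 over all genes. Among the 297 processed pseudogenes under 5 FPKM that were tested, 78 were higher and 67 lower, with a median of 0.10.

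Scaling moved this balance. As TPM, the median of all genes rose from −0.03 to 0.16 and 69.5% of all calls were higher, instead of 47.2%. The members then had 33 calls higher and 49 lower, and their median was −0.23. The members thus lay below the median of all genes on both scales.

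Over all genes tested, 22.8% were called higher and 25.5% lower. By the class of the parent, ribosomal copies had 7 members higher (14.9%) and 25 lower (53.2%) of 47, with a median log2 fold change of −0.90. In TPM these were 8 and 20, with a median of −0.74. Without HMD 3 the ribosomal copies had 8 higher and 20 lower, with a median of −0.59. Mitochondrial copies had 2 higher (12.5%) and 11 lower (68.8%) of 16, and copies of translation or folding factors had 2 higher (13.3%) and 9 lower (60%) of 15. Chromatin or transcription copies had 5 higher (41.7%) and 3 lower (25%) of 12, with a median of 0.34. RNA binding copies had 3 higher (37.5%) and 2 lower (25%) of 8, with a median of 0.45. Each of these medians kept its sign in TPM. Copies of other genes had 7 higher (20.6%) and 10 lower (29.4%) of 34, near the shares over all genes. Their median of −0.12 turned to 0.06 in TPM. The 5 chromatin or transcription copies called higher came from Hmgb1 (Gm15387, Gm13577 and Gm5518) and Ptma (Gm9800 and Gm4617) alone. Copies of the same parent are not independent of each other.

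The largest rises were those of Gm3362, Gm4149, Gm9800, Gm15387 and Gm16418, of which Gm3362 and Gm4149 are members through their Bet+HMD level alone. Gm3362 (466 bases, GRCm38 chromosome 15, 37943327 to 37943792, - strand, in an intron of Rrm2b on the same strand) had 0.475, 0.397 and 7.15 FPKM in Con, 0.124, 0 and 1.40 in HMD and 17.5, 15.8 and 10.5 in Bet+HMD. Every HMD library was at 11 reads or fewer and every Bet+HMD library at 85 or more. The change was 3.46 (SE 0.341, limma adjusted p = 0.000317) on the log2 scale. Its parent Rpl23a was at 0.56 (limma adjusted p = 0.313) and had overlapping groups, and Rrm2b was at -0.33 (adjusted p = 0.0920).

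Gm4149 (276 bases, GRCm38 chromosome 13, 75644896 to 75645171, + strand) is a copy of Rpl37a, a gene of the large ribosomal subunit, and overlaps the microRNA gene Mir682. It had 0.801, 0.671 and 9.96 FPKM in Con, 0, 0.473 and 1.07 in HMD and 11.3, 15.4 and 6.24 in Bet+HMD, a log2 fold change of 2.97 (SE 0.350, limma adjusted p = 0.000616). Rpl37a went the other way, from 98.9, 85.0 and 80.6 FPKM in HMD to 17.0, 15.3 and 15.4 in Bet+HMD, a log2 fold change of -2.40 (limma adjusted p = 1.57e-05).

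Gm9800 (GRCm38 chromosome 14, 8800000 to 8800335, - strand) is a copy of Ptma, which encodes the abundant nuclear protein prothymosin alpha. It had 9.54, 5.51 and 46.5 FPKM in Con, 6.34, 4.86 and 8.63 in HMD and 58.9, 57.4 and 49.4 in Bet+HMD. Con 3 lay just below the Bet+HMD libraries and far above Con 1 and Con 2. The log2 fold change against HMD was 2.91 (SE 0.176, limma adjusted p = 5.50e-05), while Ptma was at 0.10 (limma adjusted p = 0.304). Gm15387 (GRCm38 chromosome 15, 74093686 to 74094333, - strand), a copy of the chromatin protein gene Hmgb1, had 3.67, 1.05 and 13.9 FPKM in Con, 2.04, 1.31 and 4.84 in HMD and 29.6, 25.1 and 17.6 in Bet+HMD, a log2 fold change of 2.83 (SE 0.341, limma adjusted p = 0.000667), with Hmgb1 at 0.03 (limma adjusted p = 0.842). Gm16418 (GRCm38 chromosome 1, 166431705 to 166431875, - strand), a copy of Uqcr11 of respiratory complex III, had 4.20, 1.80 and 21.9 FPKM in Con, 2.69, 0.382 and 2.08 in HMD and 13.8, 16.9 and 14.1 in Bet+HMD, a log2 fold change of 2.66 (SE 0.337, limma adjusted p = 0.000816), with Uqcr11 at 0.45 (limma adjusted p = 0.381). In 4 of these 5 pairs the parent was not called.

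The largest falls were those of Gm11702, H3f3c, Gm4332, Tpi-rs11 and Gm10443, of which H3f3c is a member through its HMD level alone. Gm11702 (69 bases, GRCm38 chromosome 11, 115657491 to 115657559, - strand, in an intron of Grb2 on the same strand) matches Dctn1, a subunit of the dynein activator dynactin. It had 42, 49 and 30 reads in Con, 47, 14 and 26 in HMD and 0 in each Bet+HMD library. With a floor of 3 reads per library, the Bet+HMD level was at least 9.49-fold lower than that of HMD and at least 13.0-fold lower than that of Con. The limma adjusted p was 0.000103 against HMD. Dctn1 was at 0.24 (limma adjusted p = 0.0611) and Grb2 at -0.09 (adjusted p = 0.252). The floor covers counting error only.

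H3f3c fell to 0.604 ± 0.166 FPKM (SD, n = 3), at -3.66 (SE 0.164, limma adjusted p = 2.21e-05) on the log2 scale, while H3f3a was at 0.34 (limma adjusted p = 0.331) and H3f3b fell by 0.76 on the log2 scale (adjusted p = 0.000308). As H3f3c had to be high in HMD to be a member, its fall is a description. Gm4332 (GRCm38 chromosome 3, 119709516 to 119709861, + strand), a copy of the small-subunit ribosomal gene Rps20, had 33.9, 46.0 and 27.7 FPKM in Con, 39.8, 41.7 and 44.3 in HMD and 2.83, 2.45 and 2.66 in Bet+HMD. It was the member with the smallest p, at -3.56 (SE 0.0771, limma adjusted p = 2.01e-06), and Rps20 fell with it, at -1.95 (limma adjusted p = 4.22e-05). Tpi-rs11 (GRCm38 chromosome 6, 127183409 to 127183718, - strand) had 2.23, 0.729 and 3.34 FPKM in Bet+HMD, a log2 fold change of -3.14 (SE 0.303, limma adjusted p = 0.000293), and Tpi1 was at -0.68 (limma adjusted p = 0.00254). Gm10443 (GRCm38 chromosome 6, 86334031 to 86334240, + strand), a copy of Rps28 identical along 210 bases, had 78.7, 37.9 and 46.5 FPKM in Con, 80.8, 42.6 and 46.0 in HMD and 4.39, 11.0 and 3.28 in Bet+HMD, a log2 fold change of -3.08 (SE 0.403, limma adjusted p = 0.000927), and Rps28 was at -1.15 (limma adjusted p = 0.0335).

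Member and parent could both be tested in 136 pairs. Of the 62 members called lower in these pairs, 45 had a parent that was also called lower, 16 had one that was not called, and for Mpc1-ps the parent was called higher. Of the 27 called higher, the parent was called higher for Gm10052 and Gm48583 only, called lower for 13 and not called for 12. The 119 parents tested had 8 calls higher (6.72%) and 72 lower (60.5%), with a median of −0.46. A list of 30 genes that are often retrocopied, drawn up with earlier results of these data known, had 3 higher and 17 lower of 29 tested, with a median of −0.41. Most falls of members went with falls of their parents, and most rises did not go with rises. Since most parents tested were called lower, these counts alone do not tie members to their own parents.

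**Figure D4:**
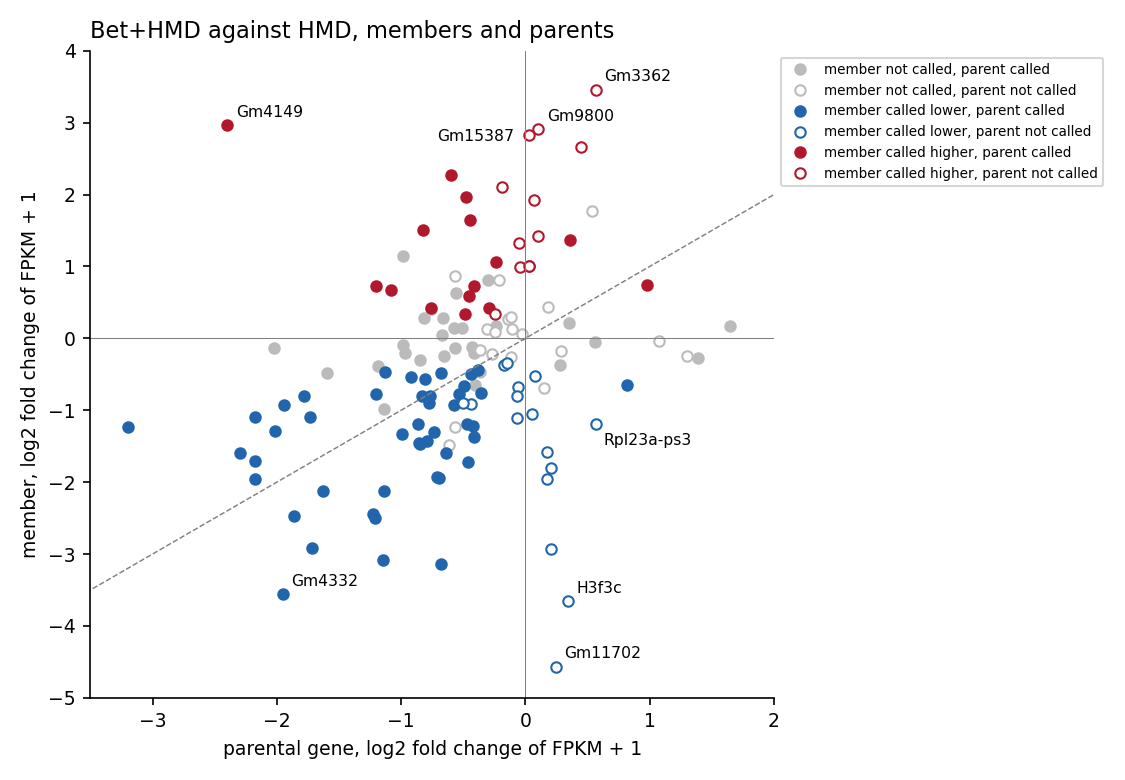
Log2 fold change of FPKM + 1, Bet+HMD against HMD, of the parental gene (horizontal) and the member (vertical), one point per pair (136 pairs). Filled points mark parents that were called, colours mark the call of the member, and the dashed line marks equal change. Of the 27 members called higher, the parent was called lower at 13, which places them left of 0 on the horizontal axis.

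Where a parent had several members, these did not always move together. There were 15 such parents with 32 members. All members were called lower at 4 (Dnajb6, Ndufab1, Rpl17 and Rpl7a) and higher at 2 (Hmgb1 and Ptma), and at 2 parents the calls went in both directions. Rpl23a-ps3 had 9.57, 17.0 and 29.7 FPKM in Con, 10.9, 7.53 and 23.5 in HMD and 6.03, 3.74 and 5.28 in Bet+HMD and a log2 fold change of -1.19 (SE 0.363, limma adjusted p = 0.0302), where Gm3362 rose. The other such parent was Rpl29, of the large ribosomal subunit. Gm10709 was at -0.77 (SE 0.218, limma adjusted p = 0.0232) and Gm13841 at 0.73 (SE 0.105, limma adjusted p = 0.00136), and both are given because their parent was one of the 2.

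Of the 3 copies of Hmgb1, Gm15387 and Gm5518 both carried A21G, and the short Gm13577 (205 bases) carried C172T. Gm5518 had 3.33, 1.33 and 20.4 FPKM in Con, 2.40, 2.01 and 6.30 in HMD and 6.40, 8.03 and 8.07 in Bet+HMD, and Gm13577 had 6.47, 6.32 and 22.5 FPKM in Con, 3.93, 5.09 and 6.35 in HMD and 14.9, 7.17 and 12.6 in Bet+HMD. In both, Con 3 was above all Bet+HMD libraries, and HMD was the lowest group on average. Their log2 fold changes were 1.01 (SE 0.313, limma adjusted p = 0.0331) and 1.00 (SE 0.257, limma adjusted p = 0.0159). Of the Ptma copies, Gm4617 had a log2 fold change of 1.43 (SE 0.215, limma adjusted p = 0.00171).

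Over the 27 members called higher, Con 3 was the highest Con library at 21, was above every HMD library at 22 and reached the lowest Bet+HMD library at 14. Con 1 reached the lowest Bet+HMD library at 3 and Con 2 at 1. Median levels over these 27 were 5.44, 3.19 and 14.4 FPKM in Con, 4.39, 4.32 and 5.33 in HMD, and 14.5, 14.3 and 12.9 in Bet+HMD. The median of Con 3 was thus near those of Bet+HMD, while at 13 of the 27 Con 3 lay below all Bet+HMD libraries. Over the 64 called lower, the medians were 13.8, 15.8 and 14.7 FPKM in Con, 14.6, 13.5 and 15.9 in HMD, and 5.40, 5.28 and 5.05 in Bet+HMD, and Con 3 was like its group.

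**Figure D5:**
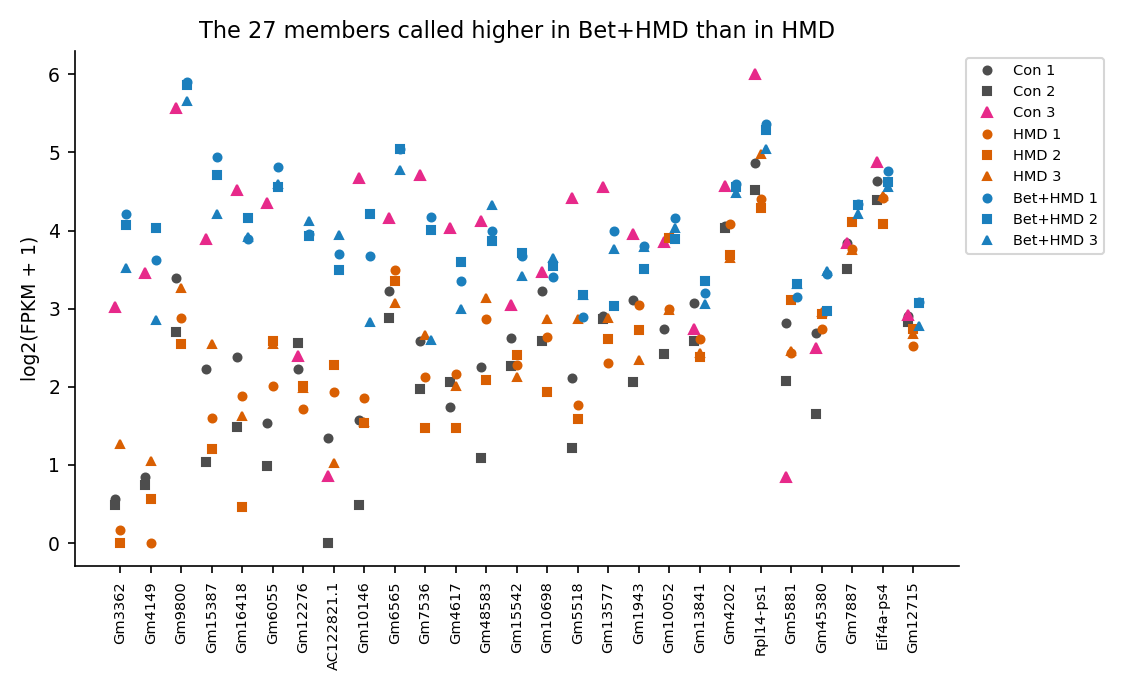
The level, as log2(FPKM + 1), of the 27 members called higher in Bet+HMD than in HMD, ordered by fold change, one point per library, with Con 3 in pink. Con 3 was the highest Con library at 21 of the 27 and at or above the lowest Bet+HMD library at 14.

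Bet+HMD was also compared with Con, the same Bet+HMD libraries set against the standard diet. The comparison shares its Bet+HMD libraries with the one before. Of the 141 members, 68 were called (48.2%, background 39.7% of 13643 genes), 9 of them higher (6.38%, background 19.4%) and 59 lower (41.8%, background 20.4%). Of the 86 members with at least 5 FPKM in every group, 33 were called (38.4%), 2 higher (2.33%) and 31 lower (36%), so the share called was not above the background. With a change of at least 1 on the log2 scale there were 7 higher (background 5.77%) and 41 lower (background 2.97%). The median log2 fold change was −0.52, against −0.04 over all genes. Without Con 3 there were 23 higher and 63 lower, and the median was −0.45. The calls over all genes rose as well, from 5422 of 13643 with Con 3 to 6269 of 13736 without it, 48.4% of them higher. The count of members called higher thus changed with Con 3. As TPM there were 15 higher and 46 lower, and 73.5% of all calls were higher instead of 48.8%. An unadjusted p under 0.05 was found at 79 members (background 49.6%). Groups did not overlap at 74 members (background 55.1%), 12 of them higher (26.1%) and 62 lower (29%).

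Over all genes tested in this comparison, 19.4% were called higher and 20.4% lower. Ribosomal copies had 3 members higher (6.38%) and 25 lower (53.2%) of 47, with a median of −0.94, and mitochondrial copies 1 higher (6.25%) and 11 lower (68.8%) of 16, with a median of −0.82. Without Con 3 these were 5 and 26, with a median of −0.68, and 2 and 11, with a median of −0.78. Chromatin or transcription copies had 1 higher and 1 lower of 12 (8.33% each), with a median of −0.03. Without Con 3 they had 4 and 2, with a median of 0.29. The 5 largest falls were those of Gm11702, Gm4332, Gm10443, Gm14539 and Gm10221. Gm4332 was at -3.31 (SE 0.175, limma adjusted p = 0.000131) and Gm10443 at -3.02 (SE 0.423, limma adjusted p = 0.00219). Gm14539 (GRCm38 chromosome X, 20581141 to 20581314, - strand) is identical to Usmg5, a small subunit of the ATP synthase, along its 174 bases. It had 52.7, 67.0 and 36.0 FPKM in Con, 51.6, 46.9 and 46.6 in HMD and 3.31, 4.22 and 11.2 in Bet+HMD, a log2 fold change of -2.98 (SE 0.409, limma adjusted p = 0.00202), and Usmg5 was at -1.93 (limma adjusted p = 0.000463). Gm10221 (GRCm38 chromosome 5, 24581554 to 24581862, - strand) was at -2.74 (SE 0.107, limma adjusted p = 0.000131) and Atp5l at -1.35 (limma adjusted p = 0.000671). H3f3c was at -1.45 (SE 0.295, limma adjusted p = 0.00878), so it lay lower in Bet+HMD than in Con as well. It is a member through its HMD level alone, and its values are descriptions. Without Con 3 the log2 fold changes were -5.30 for Gm11702, -3.47 for Gm4332, -3.09 for Gm10443, -3.22 for Gm14539, -2.71 for Gm10221 and -1.60 for H3f3c, and all 6 were called.

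The 5 largest rises were those of AC122821.1, Gm3362, Gm15387, Gm12276 and Gm6565, of which AC122821.1, Gm3362 and Gm12276 are members through their Bet+HMD level alone. AC122821.1 (287 bases, GRCm38 chromosome 17, 23813214 to 23813500, - strand), a distant copy of the ribosomal gene Rpl37, had 1.54, 0 and 0.815 FPKM in Con, 2.81, 3.87 and 1.03 in HMD and 12.0, 10.2 and 14.4 in Bet+HMD, a log2 fold change of 2.98 (SE 0.324, limma adjusted p = 0.000896). Rpl37 fell at the same time, at -1.08 (limma adjusted p = 0.0487). The member lies in an intron of Srrm2, a splicing factor gene on the opposite strand, which had 26.0, 21.2 and 17.8 FPKM in Con, 25.6, 26.2 and 22.0 in HMD and 92.5, 97.3 and 97.3 in Bet+HMD. Srrm2 rose by 2.11 on the log2 scale (limma adjusted p = 0.000213), and the part of its reads in the member was not tested.

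Gm12276 (GRCm38 chromosome 11, 62331421 to 62331721, + strand) lies in an intron of Ncor1, a corepressor gene on the opposite strand. It had 3.67, 4.92 and 4.27 FPKM in Con, 2.29, 3.04 and 2.95 in HMD and 14.5, 14.3 and 16.4 in Bet+HMD, a log2 fold change of 1.61 (SE 0.111, limma adjusted p = 0.000244), and Ncor1 was at 0.35 (adjusted p = 0.00879). The score of Gm12276 was tied between Gm10053 and Cycs, both cytochrome c genes. Gm6565 (GRCm38 chromosome 6, 100604683 to 100605120, + strand) is identical to Ube2v2, a ubiquitin-conjugating enzyme variant. It had 8.33, 6.34 and 16.8 FPKM in Con, 10.2, 9.24 and 7.43 in HMD and 32.1, 32.0 and 26.4 in Bet+HMD, a log2 fold change of 1.54 (SE 0.307, limma adjusted p = 0.00835), and Ube2v2 was at -0.20 (limma adjusted p = 0.381). These 3 rises differed little or grew without Con 3, with log2 fold changes of 3.04 for AC122821.1, 1.61 for Gm12276 and 1.91 for Gm6565.

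The rises of the other copies of near-identical parents changed with the libraries used. Gm3362 was at 2.58 (SE 0.660, limma adjusted p = 0.0208) with Con 3 and 3.41 (SE 0.206, limma adjusted p = 0.000378) without it. Gm15387 was at 2.23 (SE 0.657, limma adjusted p = 0.0338) with it and 2.99 (SE 0.374, limma adjusted p = 0.00207) without it. Gm15387 lost its call without Con 1, Con 2 or any single Bet+HMD library and without the filter (limma adjusted p = 0.0528 to 0.101), and Gm3362 lost it without Con 1, Con 2, Bet+HMD 1 or Bet+HMD 2 and without the filter (limma adjusted p = 0.0517 to 0.0702). Gm9800 did not pass with Con 3, at 1.92 (SE 0.664, limma adjusted p = 0.0569), and passed without it, at 2.76 (SE 0.206, limma adjusted p = 0.000562). Gm4149 went from 1.82 (SE 0.728, limma adjusted p = 0.0875) to 2.71 (SE 0.323, limma adjusted p = 0.00181), and Gm16418 from 1.19 (SE 0.691, limma adjusted p = 0.210) to 2.05 (SE 0.256, limma adjusted p = 0.00206). In all 5, the values without Con 3 were called, and Con 3 was the highest Con library.

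Calls were also counted by position and length. In Bet+HMD against HMD, the 22 members in an intron on the same strand had 4 calls higher and 12 lower, the 28 on the opposite strand 6 and 12, the 87 clear of other genes 14 and 39, and the 4 that overlapped an exon 3 and 1. The background was 22.8% higher and 25.5% lower. The 43 members whose windows were all shared had 9 higher and 20 lower, the 95 with some shared windows had 16 and 44, and the 3 with none had 2 and 0. Under 300 bases there were 6 higher and 9 lower of 23, from 300 to under 600 bases 12 and 34 of 72, and from 600 bases 9 and 21 of 46. Members called higher, called lower and not called had medians of 438, 481 and 483 bases, GC contents of 50.6%, 49.3% and 49.9%, and identities of 99.6%, 99.7% and 99.5%. These are descriptions without a test.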

How the data were processed

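Expression had been measured by RNA sequencing of ribosomal RNA-depleted libraries. The authors aligned reads to mm10 with HISAT2 2.1.0 and counted them with featureCounts 1.5.0-p3, per the labels, and deposited FPKM values. The study's methods name a stranded library kit. The use of strand in counting and the handling of reads with several matches are not given in the sources used here. The COL columns were read as Con.

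Members and gene lists were chosen with earlier results of these data known. Whole reads were recovered from the FPKM for all values (tolerance 0.01). For each comparison, limma 3.58.1 (R 4.3.3, two-sided, intensity trend) was run on log2(FPKM + 1) of all genes with a mean of at least 1 FPKM over the libraries compared, with Benjamini-Hochberg adjustment, and the script was tested on simulated data. Fold changes are on this scale and understate changes of low genes. The study's count tool was not used as the main test because the values are FPKM. With 3 libraries against 3, an exact permutation test of a single value cannot go below 0.1. Groups followed the labels.

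Parents were the protein-coding genes of GENCODE M21 with the best blastn 2.17.0 bit score over at least 0.5 of the length. Their classes and the intervals of length were set by hand. Named were the 10 members with the highest mean, the 5 largest called rises and falls per comparison without overlap (with under 3 calls, the 3 smallest p), H3f3c, the threshold neighbours and the parents. Further members were named where a count was small, after their values were seen. Depth was 16031464 to 18291952 reads. Alternatives were TPM, a pseudocount of 0.1, no filter, voom on recovered reads, 1 fit of all groups, the earlier table, a replicate block and leaving out each library.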

Additional observations from a re-analysis of the deposited data

How the results depend on the processing

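In HMD against Con, 1 member was called with all 3 groups in one fit and 0 to 1 when a library was left out, H3f3c in both cases, and 0 under the other alternatives. H3f3c is a member through its HMD level alone, so these calls are descriptions. Counted by a mean of at least 5 FPKM in every group instead of over all libraries, 86 of the 141 pseudogenes were members, with 0, 45 and 33 calls in the 3 comparisons (0%, 52.3% and 38.4%). Members called in Bet+HMD against HMD were 67 to 90 when a library was left out, and those called against Con were 49 to 86. Over all genes the counts were 4782 to 6990 and 3302 to 6269. Calls of higher members moved by over 1.5 times in Bet+HMD against HMD to 17 with all 3 groups in one fit and to 17 without Bet+HMD 1 and without HMD 1. Against Con they moved to 15 in TPM, 14 with voom, 5 without a filter, 5 without Bet+HMD 1 and 23 without Con 3. Against Con, 11 values of named members lost their call, all of Gm15387 and Gm3362. Without a filter the limma adjusted p was 0.0779 for Gm15387 and 0.0517 for Gm3362. Among the members named for the smallest p or the largest changes, and H3f3c, no direction turned under these alternatives. With the replicate number as a block, 0 members were called in HMD against Con, 87 in Bet+HMD against HMD (27 higher, 60 lower) and 67 in Bet+HMD against Con (10 higher, 57 lower). Same-numbered libraries deviated with correlations of −0.055 to 0.315, −0.160 to 0.0055 and −0.185 to −0.0595 over 13464 genes in these comparisons. Libraries of different number were not compared in this way, so pairing by number is not settled. With the block, an unadjusted limma p under 0.05 was found at 36 members in HMD against Con, and without it at 9. The share over all genes with the block is not given here. The causes were not tested. How reads that match both a member and its parent were assigned limits the levels, and members with few reads, such as H3f3c in Bet+HMD with 3 to 5, are limited by depth.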
